A study of Mus musculus with 2 samples.

Results

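The genes described here are 10 mouse genes of antigen presentation by the major histocompatibility complex (MHC), read in chromatin accessibility profiles of the adrenal gland. They were chosen by function and not by a measured value, though with earlier results of these data known. The choice was made out of 21938 protein-coding genes in the basic set of GENCODE release M21. The 5 class I genes are H2-K1, H2-D1, B2m, Tap1 and Psmb8, and the 5 class II genes are H2-Aa, H2-Ab1, H2-Eb1, Cd74 and Ciita. Accessibility was measured by DNase-seq, in which the nuclease DNase I is let into isolated nuclei and cuts where DNA is open; pile-ups of cuts, called peaks, mark promoters and enhancers in use. The material was whole adrenal gland of female mice aged 36 days, of strain B6CASTF1/J, whose parents are C57BL/6J and CAST/EiJ, a strain derived from wild mice. The study has 1 group with 2 libraries, biological replicates 1 and 2. The labels number the animals differently and cite 1 donor record for both, so the spread between the replicates may be in part technical. They name no treatment, and no second condition was analysed here, so class I was set against class II within each library.

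MHC class I molecules sit on nearly all nucleated cells and show peptides of cytosolic proteins to cytotoxic T cells. The heavy chains are encoded by H2-K1 and H2-D1 and the shared light chain by B2m, while Psmb8 is an inducible catalytic subunit of the immunoproteasome and Tap1 is a subunit of the transporter that carries peptides into the endoplasmic reticulum. MHC class II molecules are made mainly by macrophages, dendritic cells and B cells, from chains encoded by H2-Aa, H2-Ab1 and H2-Eb1 that assemble on the invariant chain Cd74. Ciita is the coactivator that class II transcription depends on. Promoters of both classes carry an upstream module of X and Y boxes, which RFX, CREB and NF-Y proteins bind.

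The peak list numbered 157595 in replicate 1 and 166206 in replicate 2, with median widths of 180 and 171 bp. Peak height is a signal deposited by the authors, in whole steps of 0.00934 in replicate 1 and 0.00883 in replicate 2, and the median over all peaks was 0.897 and 0.997. The number of reads behind a height is not known, so no counting interval is given. The promoter height of a gene is that of its tallest peak reaching within 1000 bp of any of its transcription start sites (TSS), with 0 for no peak. Where values stand in a pair without further words, they are those of replicate 1 and replicate 2. All positions are on mm10. The adrenal label was checked with 7 markers of cortex and medulla, among them Star, Cyp11a1, Nr5a1, Th and Chga. A promoter peak was found at 7 of 7 in each replicate, against 68.6% and 69.6% of all protein-coding genes. Only 3 of 7 in replicate 1 and 4 of 7 in replicate 2 were above the median of all genes, so the check is weak. All values come from whole tissue, where fewer cells of a type and less open chromatin per cell cannot be told apart. The reference sequence is that of C57BL/6J, and how reads of the CAST/EiJ chromosomes aligned to it was not tested.

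All 10 members had a promoter peak in both replicates. Among all protein-coding genes 68.6% had one in replicate 1, 69.6% in replicate 2 and 67.4% in both. At 10 of 10 members a footprint, a short stretch protected from cutting, lay wholly inside a promoter peak in each replicate, against 65.9% of all genes in replicate 1 and 66.9% in replicate 2. At Ciita none of these footprints was overlapped by a footprint of the other replicate. The members therefore differed in how tall their promoter peaks were, not in whether one was called.

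The class I promoters were the taller group. The peak of Tap1 reached 16.7 in replicate 1 and 29.1 in replicate 2 (22.9 ± 8.78, SD, n = 2), which was taller than the promoters of 93.7% and 97.5% of all genes. It lies at chr17:34187321-34187520 in replicate 1, with its centre 132 bp upstream of the Tap1 TSS. It overlaps the first exon of Psmb9, another inducible subunit of the immunoproteasome, which is transcribed away from Tap1. That single peak was the tallest within 1000 bp of the TSS for both genes, so the height cannot be divided between them. H2-D1 had 16.4 and 24.6 (20.5 ± 5.74), above 93.4% and 93.6% of all genes. Its peak at chr17:35262921-35263100 lies 281 bp downstream of the GENCODE start, inside the annotated first exon, and most of it precedes the RefSeq start of the gene.

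Psmb8 followed with 9.77 and 15.5 (12.6 ± 4.04), in a peak at chr17:34197581-34197760 centred 119 bp upstream of its TSS, between Tap1 and Psmb8. H2-K1 had 8.66 and 12.9 (10.8 ± 2.96), in a peak at chr17:34000261-34000480 whose centre was 24 bp upstream of the nearest TSS. B2m, the only class I member outside chromosome 17, had 9.76 and 11.5 (10.6 ± 1.25), at chr2:122147561-122147760 and 25 bp upstream of its TSS, within an intron of Patl2. Every class I member was taller in replicate 2 than in replicate 1. In the order of mean heights, the ranges of the 2 replicates overlapped between Tap1 and H2-D1, between Psmb8 and H2-K1 and between H2-K1 and B2m, so these neighbours did not differ beyond that spread, which includes the general shift between the libraries. Tap1 was taller than H2-D1, and Psmb8 than H2-K1, in both replicates. Heights were also scaled to take out 1.49, the median ratio of replicate 2 over replicate 1 among genes with a promoter peak in both. Only H2-K1 and B2m then still overlapped within class I. With each height divided by its library's median peak height instead, Tap1 and H2-D1, and Psmb8 and H2-K1, overlapped too. H2-D1 and Psmb8 did not overlap on any of these scales.

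The class II promoters were lower. H2-Aa, which encodes the alpha chain of I-A, had 6.15 in replicate 1 and 5.23 in replicate 2 (5.69 ± 0.647), at chr17:34287781-34287980 and 58 bp upstream of its TSS. H2-Eb1, for the beta chain of I-E, had 5.06 and 5.17 (5.11 ± 0.0828), at chr17:34305701-34305900 and 66 bp upstream. These were the only class II promoters above the median of all genes, which was 2.97 and 4.46. H2-Ab1, for the beta chain of I-A, had 2.19 and 2.25 (2.22 ± 0.0454), at chr17:34263061-34263280, and was taller than 46.6% and 43.2% of all genes. With the start sites of the comprehensive GENCODE set its height was 2.84 and 4.56, a mean of 3.70, against medians of 2.97 and 4.46 for all genes with the basic set.

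Cd74 had 0.822 and 1.52 (1.17 ± 0.492), in a peak centred 207 bp upstream of its TSS in replicate 1 (chr18:60803521-60803760). Ciita had the lowest promoter of the 10, with 0.477 and 0.468 (0.472 ± 0.00619), above only 33.9% and 32.6% of all genes, most of which lack a peak. Its 5 annotated TSS had 1 promoter peak between them, at chr16:10489701-10489880, and the most upstream TSS had none within 1000 bp in either replicate. Within class II no neighbours in the order of mean heights overlapped over the 2 replicates. After either scaling, the ranges of H2-Aa and H2-Eb1 did overlap.

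Set against each other, the 5 class I promoters and the 5 class II promoters did not overlap in either library. In replicate 1 the class I heights ran from 8.66 to 16.7 with a median of 9.77, and the class II heights from 0.477 to 6.15 with a median of 2.19. In replicate 2 class I ran from 11.5 to 29.1 with a median of 15.5, and class II from 0.468 to 5.23 with a median of 2.25. The difference of the medians, class I minus class II, was 7.59 in replicate 1 and 13.2 in replicate 2 (10.4 ± 4.0, SD, n = 2), or ratios of 4.47 and 6.88. Beside the median of all genes, 5 of 5 class I and 2 of 5 class II promoters were above it in each library. Genes are not replicates and there is 1 group, so no p-value was computed.

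**Figure D1:**
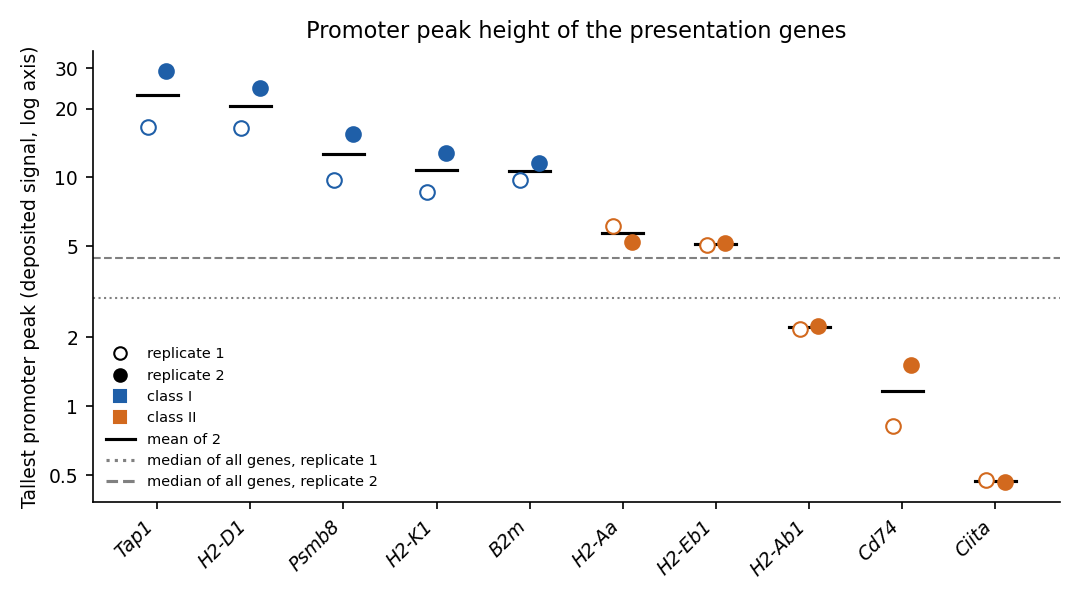
Height of the tallest promoter peak of each member in deposited signal units on a log axis, with class I genes left of class II genes and each class in order of mean height. Open points are replicate 1, filled points replicate 2 and bars their mean; every class I point is at 8.66 or above, every class II point at 6.15 or below, and the grey lines mark the medians of all genes (2.97 and 4.46).

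The table of false discovery rates, which lists each position under 0.05, ordered the class I and class II windows in a similar but not identical way. Within 1000 bp of the TSS, listed positions numbered 1259 and 1518 at H2-K1, 1082 and 1282 at B2m, 1066 and 1389 at Tap1, 644 and 804 at Psmb8 and 576 and 806 at H2-D1. Among class II genes they numbered 573 and 474 at H2-Ab1, 555 and 574 at H2-Eb1, 365 and 339 at H2-Aa, 306 and 284 at Cd74 and 194 and 117 at Ciita. The windows cover all TSS of a gene and so differ in length, from 2001 bp at B2m to 5611 bp at Ciita. Psmb9 had the same counts as Tap1, since their windows overlap. At this threshold the classes did not overlap in either replicate, although H2-D1 and H2-Ab1 were close in replicate 1. Counting only positions at or under 0.001 they did overlap: Psmb8 had 428 and 586 and H2-D1 465 and 468, against 522 and 543 at H2-Eb1. H2-D1 had few listed positions beside its tall peak, while H2-K1 and B2m had lower peaks and more listed positions.

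Members of gene families can lose reads that fit several places, so the uniqueness of each promoter was measured on the reference. Of the 32-base words in the tallest promoter peak, 91.0% at H2-K1 and 94.0% at H2-D1 occurred once in the genome, and 100% did so at the other 8 members. Over the whole window of 1000 bp to either side, 71.1% were unique at H2-K1 and 86.4% at H2-D1. The effect of this on the heights was not tested.

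**Figure D2:**
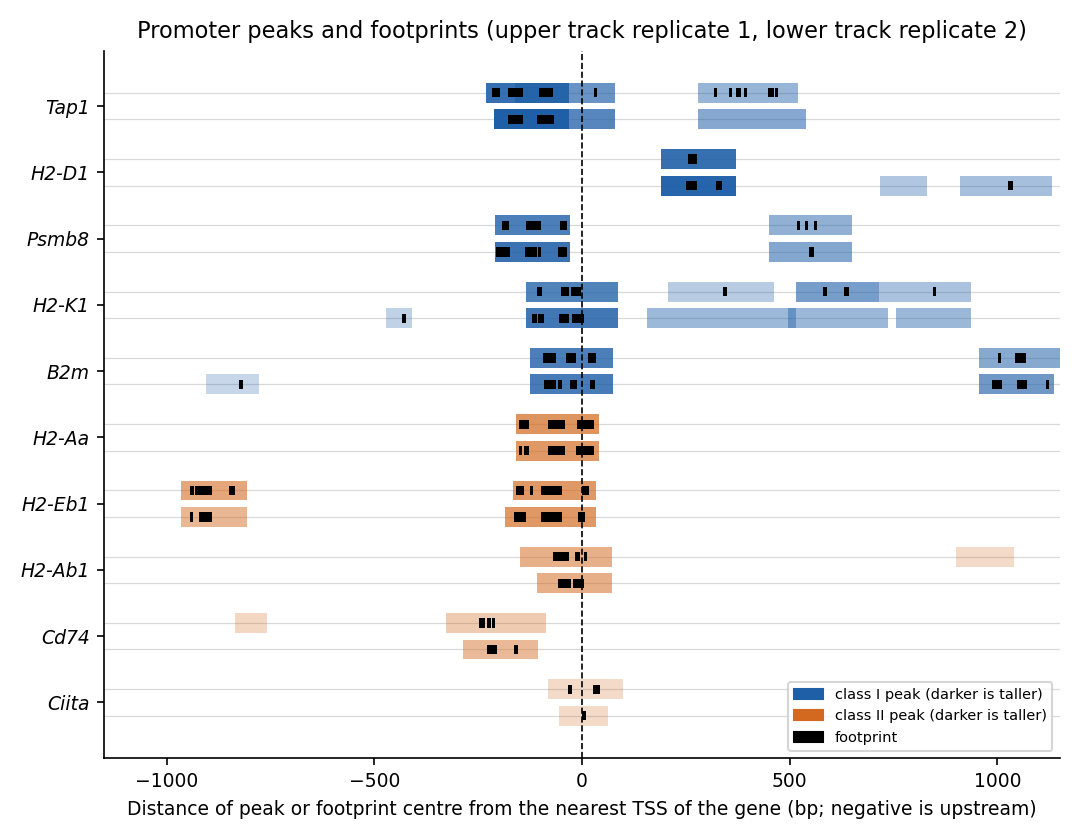
Promoter peaks (coloured bars, darker for taller peaks) and footprints (black) of each member by distance in bp from its nearest TSS, upper track replicate 1 and lower track replicate 2, class I in blue above class II in orange. The tallest peak spans or ends close to the TSS at most members, lies downstream of the annotated start at H2-D1, and at H2-Eb1 a second peak with footprints lies 886 bp upstream in both replicates.

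Between the replicates, most class II promoters lay below the general shift of the libraries. Class I promoters lay on both sides of it. Over 14797 genes with a promoter peak in both libraries, the median log2 ratio of replicate 2 over replicate 1 was 0.57, and 96.4% of these genes were taller in replicate 2. Of the members 8 of 10 were, 5 of 5 in class I and 3 of 5 in class II. The class I log2 ratios were 0.57 at H2-K1, 0.58 at H2-D1, 0.24 at B2m, 0.80 at Tap1 and 0.66 at Psmb8, with a median of 0.58. The class II log2 ratios were -0.23 at H2-Aa, 0.04 at H2-Ab1, 0.03 at H2-Eb1 and -0.03 at Ciita, with 0.88 at Cd74 and a median of 0.03. Thus 4 of 5 class II promoters had a ratio below the median of 0.57, and Cd74 had one above it.

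H2-Aa stood furthest from the other genes in this respect. Only 1.83% of the 14797 genes with a promoter peak in both had a lower ratio, and only 0.320% of the 2815 genes of like height did. Ratios lower than that of H2-Eb1 were found at 1.30% of genes of like height, and lower than that of H2-Ab1 at 5.73%. At Ciita the share was 25.7%, and genes of like height had a median log2 ratio of 0.31. At Cd74 the share was 85.4%. B2m was the lowest of class I, with 3.26% of genes of like height below it, and Tap1 was at the other end, with 96.7% below it. Both stood nearer to an end of their like-height genes than H2-Ab1, Ciita and Cd74 did. Markers of cells that make class II had mixed ratios. Of the 10 macrophage, dendritic and B cell markers with a peak in both replicates, 6 had a log2 ratio below the median of 0.57. The range was -0.77 at Itgax to 1.34 at Xcr1. The tallest marker of each list had 0.60 (Mertk), 0.25 (Zbtb46) and 0.31 (Ebf1). The number of markers with a promoter peak was 4 of 10 in replicate 1 and 7 of 10 in replicate 2 for macrophages, 5 of 8 in each for dendritic cells and 1 of 6 in each for B cells. Their part in the ratios of the class II genes was not tested.

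**Figure D3:**
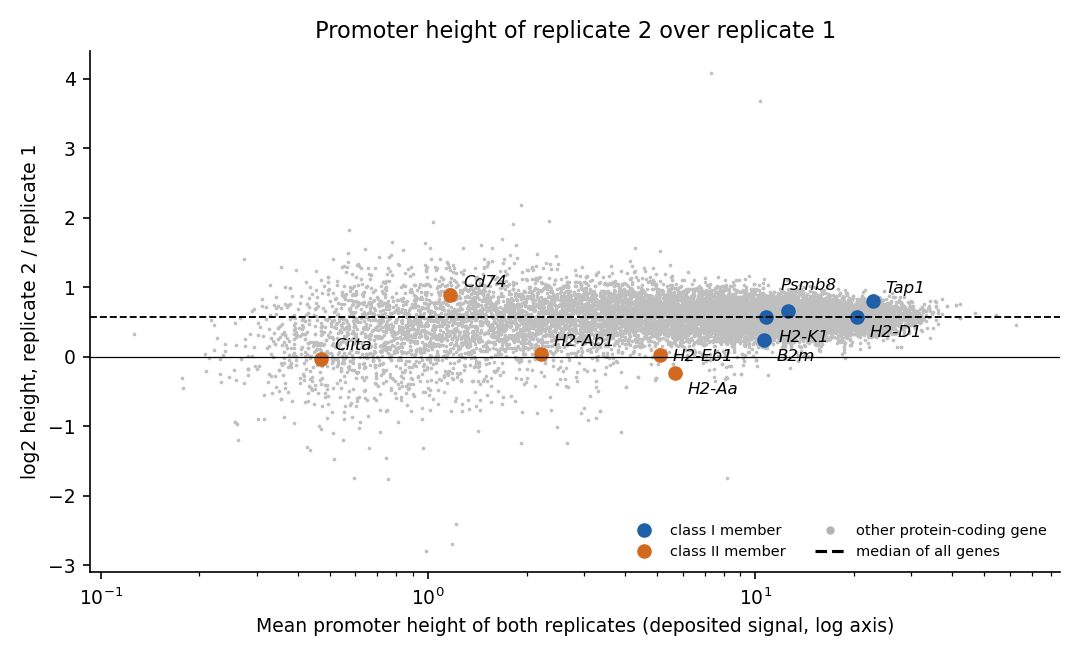
log2 ratio of promoter height, replicate 2 over replicate 1, against the mean height of both on a log axis, for all genes with a peak in both (grey) and the members (class I blue, class II orange). The dashed line is the median of all genes with a peak in both, 0.57. The class I members lie between 0.24 and 0.80, and H2-Aa (-0.23), H2-Eb1 (0.03), H2-Ab1 (0.04) and Ciita (-0.03) lie below all 5 of them.

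The base sequence under the promoter peaks is shown where it carries the X and Y boxes, since these are the elements both classes share. RefSeq promoters of 300 bases, 250 before and 50 after each start, matched 7 of the 10 members. The others were H2-Ab1, Cd74 and Ciita. The Y box core CCAAT, searched on both strands as all motifs were, occurred in 6 of 7 members and in 37.4% of 32851 RefSeq promoters. The X2 box core TGACG occurred in 5 of 7 members and in 20.8% of promoters, and its palindrome TGACGTCA in H2-Aa alone of the 7 and in 1.79% of promoters. The X1 core AGNAAC occurred in 4 of 7 members and 48.1% of promoters, and AGNAAC followed by ATTGG, the Y box on the other strand, at 10 to 40 bases in 1 of 7 (H2-Eb1) and 0.804%.

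A looser pair was defined after these sequences had been read, so its count is a description. It is TGANG followed on the gene strand by ATTGG, with starts 20 to 30 bases apart, and its letters can overlap those of TGACG and CCAAT. It occurred in 5 of 7 members (H2-K1, H2-D1, B2m, H2-Aa and H2-Eb1) and in 1.61% of all promoters. The stretches from the first to the second element, with the elements in capitals and the gene strand shown 5′ to 3′, read as follows.
H2-K1, chr17:34000359-34000388, minus strand: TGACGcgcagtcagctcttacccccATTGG
H2-D1, chr17:35262993-35263022, plus strand: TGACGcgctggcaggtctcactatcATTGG
B2m, chr2:122147609-122147638, plus strand: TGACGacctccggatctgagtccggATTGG
H2-Aa, chr17:34287867-34287897, minus strand: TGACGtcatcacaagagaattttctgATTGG
H2-Eb1, chr17:34305781-34305812, plus strand: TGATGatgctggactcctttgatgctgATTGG
In the stretches shown the starts were 25 bases apart in all 3 class I genes, 26 in H2-Aa and 27 in H2-Eb1. H2-K1 and H2-D1 had 23 of 30 bases in common, and H2-K1 and B2m 13 of 30, counts that include the elements themselves. Of pairs in 1 gene that share an ATTGG, the one with starts closest to 26 bases apart is shown; H2-D1 also held TGATG at 28 bases and H2-Eb1 at 24 bases.

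Footprints covered these stretches to different extents. At H2-Aa 1 footprint of 41 bp in replicate 1 and 42 bp in replicate 2 held both elements, and at H2-Eb1 1 footprint of 51 and 52 bp did. Such long footprints were rare, as 0.680% and 1.06% of footprints in the tallest promoter peaks of all genes were 40 bp or longer. At H2-K1, H2-D1 and B2m no footprint held both elements. The bases covered in both replicates were 31 of 31 at H2-Aa and 32 of 32 at H2-Eb1, against 20 of 30 at H2-K1, 14 of 30 at H2-D1 and 16 of 30 at B2m in class I. TGACG was covered at all 3 class I genes in both replicates, and ATTGG was covered in both at H2-K1 but in neither at H2-D1. Longer stretches show this, now with capitals for bases inside a footprint of both replicates.
H2-K1, chr17:34000349-34000468, minus strand: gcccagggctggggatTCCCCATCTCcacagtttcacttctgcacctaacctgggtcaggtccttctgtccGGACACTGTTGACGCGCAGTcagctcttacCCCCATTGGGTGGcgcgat
B2m, chr2:122147529-122147648, plus strand: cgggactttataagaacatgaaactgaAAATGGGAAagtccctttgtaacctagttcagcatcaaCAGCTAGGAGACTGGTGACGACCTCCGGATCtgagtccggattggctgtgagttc
Psmb8, chr17:34197620-34197716, plus strand: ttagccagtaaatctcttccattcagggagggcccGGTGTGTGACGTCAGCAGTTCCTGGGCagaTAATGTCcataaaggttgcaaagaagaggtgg
H2-Aa, chr17:34287857-34287977, minus strand: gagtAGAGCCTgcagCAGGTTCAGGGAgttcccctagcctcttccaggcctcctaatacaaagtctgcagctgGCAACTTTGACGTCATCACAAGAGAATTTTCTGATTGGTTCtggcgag
H2-Eb1, chr17:34305701-34305822, plus strand: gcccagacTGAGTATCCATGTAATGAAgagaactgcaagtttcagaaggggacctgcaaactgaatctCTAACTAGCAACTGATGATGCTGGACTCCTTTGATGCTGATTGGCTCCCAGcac
Psmb8 is shown because its tallest peak, which lies outside the 300-base RefSeq promoter, holds TGACGTCA under a footprint in both replicates, with no ATTGG in the stretch.

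The elements bound by interferon and NF-κB factors were also searched. The NF-κB letters GGGNNTTCC occurred in H2-K1, H2-D1 and H2-Aa and in 5.82% of promoters, and in all 3 the match was at least in part under a footprint in both replicates. The interferon response letters GAAANNGAA, which interferon regulatory factors bind, occurred in B2m alone of the 7 and in 8.56% of promoters. Only these exact letters were searched. The H2-K1 stretch above and the H2-D1 promoter peak hold tttcacttc, the same blocks in the other order on the other strand, which was not counted. A missing match therefore does not show that an interferon element is absent. The STAT letters TTCNNNGAA occurred in Psmb8 alone and in 8.30%, and the Sp1 letters GGGCGG in Tap1 alone and in 35.7%. None of the 7 held the PU.1 letters GAGGAAGT (3.20% of promoters), the PU.1 and IRF composite GGAANTGAA (2.35%), the SF-1 letters CAAGGTCA (1.56%) or the AP-1 letters TGANTCA (7.81%), which says only that these letters are not in these windows.

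CpG content was computed for the 7 members with a RefSeq promoter, which leaves out H2-Ab1, Cd74 and Ciita, and the window of Psmb8 does not hold its tallest peak. The ratio of observed to expected CpG in the RefSeq promoters lay between 0.523 and 0.682 at the 5 class I genes, and was 0.158 at H2-Aa and 0 at H2-Eb1. The median of all promoters was 0.384, so that all class I promoters lay above it and both class II promoters below it. Its part in the difference of heights was not tested.

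Footprints were counted next over all promoter peaks of a gene. The median per gene was 7 in class I and 3 in class II in replicate 1, and 5 in class I and 3 in class II in replicate 2, a difference of 3 ± 1.41 (SD, n = 2), while the median of all genes was 3 in each. With a window of 2 kb the difference was 0 in both replicates, and with the comprehensive GENCODE TSS set it was 4 in replicate 1 and 0 in replicate 2. The ranges overlapped, with 1 to 10 in class I and 2 to 7 in class II in replicate 1, and 3 to 8 in class I and 1 to 5 in class II in replicate 2. H2-D1, with 1 footprint in replicate 1, was the lowest of class I in spite of its tall peak. The count leaves out footprints that cross a peak edge, and at H2-D1 such a footprint covered the NF-κB letters in both replicates. The share of the tallest peaks lying under footprints was much closer, at 33.2% and 38.2% in class I and 30.8% and 34.4% in class II, against 24.5% and 26.4% over all genes. Of the footprints of replicate 1 in promoter peaks, 19 of 32 in class I and 12 of 18 in class II were overlapped by one of replicate 2. The same share over the promoter peaks of all genes was not computed, so whether either class departs from it is not known.

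Distal peaks were those in the gene body or its flanks of up to 50 kb, cut at the next protein-coding TSS, provided that their centre stood more than 1 kb away from each TSS of the gene. All 10 members had at least 1 in each replicate, as did 87.6% of all genes in replicate 1 and 88.7% in replicate 2. The median count was 6 in class I and 6 in class II in replicate 1, and 7 in each class in replicate 2, so that the difference was 0 in both replicates, and the medians of all genes were 5 and 6. The equality depends on the setting: class I minus class II was -2 in both replicates with flanks of 10 kb, -1 in both with each peak given to its nearest TSS, and -2 and -3 with the comprehensive TSS set. H2-D1 with 11 and 15 distal peaks and Ciita with 11 and 14 had the most, and Psmb8, whose domain is only 15.7 kb long, had the fewest with 2 and 1. Neighbouring members share peaks, so the counts are not independent: promoter and distal peaks together were 74 distinct peaks in replicate 1 and 84 in replicate 2. Of the 74, 68 (91.9%) were overlapped by a peak of replicate 2, against 80.2% of all peaks. The count was 37 of 39 in class I and 31 of 35 in class II.

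Near the class I genes B2m, Tap1 and Psmb8 the tallest distal peak was a promoter peak of a neighbour. For B2m the tallest was 16.5 and 24.9, at chr2:122118301-122118520, and lay 25 bp from the TSS of Spg11. For Tap1 it was the promoter peak of Psmb8. For Psmb8 it was a peak of 1.58 and 2.40 inside Tap1, a lower promoter peak of Tap1 that is also within 1 kb of the Psmb9 TSS. H2-D1 had a peak of 9.27 and 16.7 at chr17:35302081-35302260, 39.4 kb downstream and 18.4 kb from its nearest TSS, that of H2-Q1. Among peaks nearest to their own gene, H2-D1 had 8.55 and 13.1 at chr17:35258241-35258440, 4.39 kb upstream, and H2-K1 had 5.06 and 8.09 at chr17:33978761-33978980, 21.4 kb beyond its start in the direction of transcription. Tap1 had 4.09 and 5.20 at chr17:34170881-34171040, 16.6 kb upstream, and B2m had 2.30 and 4.10 at chr2:122148641-122148840 in its own intron. All of these were taller in replicate 2.

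At the class II genes H2-Ab1, H2-Eb1, Cd74 and Ciita the tallest distal peak exceeded the promoter peak in both replicates. In class I this was so at B2m, where the distal peak was the promoter of Spg11. The share over all genes was not computed. For Ciita a peak of 9.11 and 11.6 at chr16:10452621-10452820 lay 27.3 kb upstream, but nearer to the TSS of Tvp23a, at 5.36 kb. For Cd74 a peak of 2.74 and 4.10 lay in an intron of Tcof1 (chr18:60830901-60831140), and the peaks in its own introns were 1.28 and 0.971 or lower. H2-Ab1 had a peak of 2.84 and 4.56 at chr17:34257681-34257840, 5.45 kb upstream of the TSS used here. For H2-Eb1 it was the promoter peak of H2-Aa in replicate 1 and, in replicate 2, an intronic peak at chr17:34309841-34310020 that had 3.95 in replicate 1 and 6.08 in replicate 2. The tallest distal peak of H2-Aa was the promoter peak of H2-Eb1, and between these genes a peak of 2.94 and 3.91 lay nearest to H2-Aa, 3.96 kb upstream (chr17:34291701-34291860).

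**Figure D4:**
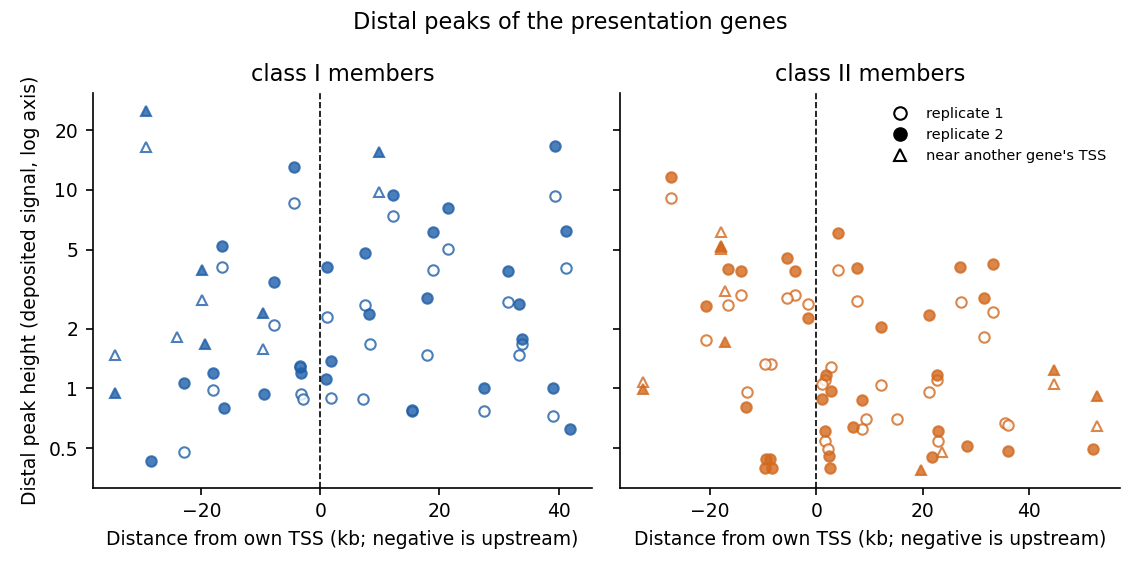
Height of each distal peak in deposited signal on a log axis against its distance from the nearest TSS of its gene in kb, class I left and class II right, open for replicate 1, filled for replicate 2, triangles within 1 kb of another gene's TSS. The tallest class I points (16.5 and 24.9, left) are the Spg11 promoter peak and the tallest class II points (9.11 and 11.6, left) lie upstream of Ciita; a peak shared by neighbouring members appears once for each.

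The distal peaks were not all taller in replicate 2. Of distinct distal peaks overlapped in both replicates, 25 of 28 in class I and 18 of 28 in class II were taller in replicate 2, with median log2 ratios of 0.60 in class I and 0.29 in class II. These sets include peaks that are also promoter peaks of members. The share over the distal peaks of all genes was not computed, so whether either class departs from it is not known. Over all peaks the median height was 0.897 in replicate 1 and 0.997 in replicate 2. Distal peaks lower in replicate 2 included peaks between H2-Aa and H2-Eb1. A peak of 3.10 and 1.72 lay 886 bp upstream of H2-Eb1 (chr17:34304901-34305060). A peak of 1.33 in replicate 1 at chr17:34296161-34296400, 8.46 kb upstream of H2-Aa, was met in replicate 2 by 2 peaks of 0.397 and 0.441. The peak at 3.96 kb upstream of H2-Aa was taller in replicate 2, as given above.

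These 3 peaks between H2-Aa and H2-Eb1 each held the TGANG and ATTGG pair, on either strand, and are shown for that reason. In all peaks the pair occurred in 1.03% in replicate 1 and 0.919% in replicate 2. Outside the members' promoter windows it was found in 2 of 7 distal peaks of H2-Aa and H2-Eb1 in replicate 1 and 3 of 9 in replicate 2, and in 1 of 27 and 1 of 30 distal peaks of class I members. The distal peaks of H2-Ab1, Cd74 and Ciita were not searched. The class I peak was the promoter of H2-DMb1, and the third of replicate 2 was a peak of 0.388 close to the TSS of H2-Eb2, while the third stretch shown here lies in the promoter window of H2-Eb1. These few peaks share a region and are a description. Capitals again mark bases inside a footprint of both replicates.
chr17:34291716-34291794, plus strand: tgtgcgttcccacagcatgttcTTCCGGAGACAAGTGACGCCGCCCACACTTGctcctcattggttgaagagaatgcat
chr17:34296231-34296310, plus strand: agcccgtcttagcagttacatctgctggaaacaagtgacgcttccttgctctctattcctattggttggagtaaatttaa
chr17:34304915-34304994, minus strand: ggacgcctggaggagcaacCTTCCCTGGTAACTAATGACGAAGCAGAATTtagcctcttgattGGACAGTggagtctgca
In each, TGACG stands 24 or 25 bases before ATTGG. At the first and the third a footprint of both replicates covered TGACG, and at the second no base was covered in both.

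The further lists were not uniform within a class. Of 12 further class I pathway genes, 12 had a promoter peak in each replicate, with median heights of 7.50 and 10.9, and 10 of 12 lay above the median of all genes in each. The tallest was Calr, a chaperone of the peptide loading complex, with 19.99 and 29.3 (24.7 ± 6.61), and the lowest Psmb10, an immunoproteasome subunit, with 2.02 and 2.74 (2.38 ± 0.514). Nlrc5, the class I coactivator related to Ciita, had 4.03 and 6.55 (5.29 ± 1.78), above Ciita in both replicates. Of 10 other class I heavy chains 9 had a peak, with medians of 2.59 and 3.16, and 5 of 10 in replicate 1 and 3 of 10 in replicate 2 were above the median of all genes. H2-Q4 was the tallest with 9.61 and 13.1, and H2-Q1 had none. Only 30.5% of the 32-base words in the window of H2-Q6 and 32.7% in that of H2-Q7 were unique, so their heights are uncertain.

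Of 11 further class II pathway genes, 10 were annotated as protein-coding (Ifi30 was not), and the promoter had a peak at 5 of these in replicate 1 and at 6 in replicate 2, with medians of 0.463 and 0.521, and 3 in each replicate were above the median of all genes. These 3 lay within the range of the class I members. They were Lgmn, a lysosomal protease, with 16.0 and 25.4 (20.7 ± 6.62), H2-DMa, a subunit of the class II peptide exchanger, with 15.8 and 22.3, and the lysosomal protease Ctsl with 12.2 and 16.8. H2-DMb1, the partner of H2-DMa, had only 1.47 and 0.944. H2-Oa, Ctss and March1 had no promoter peak in either replicate, H2-Eb2 (0.388) and H2-DMb2 (0.653) had one in replicate 2 alone, and H2-Ob (0.925) in replicate 1 alone.

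Most genes for regulators other than Ciita had tall promoters. All 7 genes for factors that bind the X and Y boxes, Rfx5, Rfxap, Rfxank, Nfya, Nfyb, Nfyc and Creb1, had peaks above the median of all genes in both replicates, with medians of 15 and 21.9. Nfya was the tallest at 21.5 and 32.4 and Rfx5 the lowest at 9.82 and 10.3, and the lowest of them was above all 5 class II members. All 12 interferon and NF-κB genes had peaks, with medians of 7.94 and 12.6, and 10 of 12 in replicate 1 and 11 of 12 in replicate 2 were above the median of all genes. Ifnar1, a chain of the type I interferon receptor, was the tallest with 19.0 and 34.5, and Nfkb1, below that median in both, was the lowest with 2.06 and 2.24.

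Markers of cells that make class II were mostly low or at 0. Of 10 macrophage markers Csf1r, Mrc1 and Fcgr1 had no promoter peak, Adgre1, C1qa and Spi1 had one in replicate 2 alone (0.415, 0.733 and 0.618), and Mertk was the tallest with 6.01 and 9.14. Of 8 dendritic cell markers 5 had a peak in each replicate, Zbtb46 being the tallest with 11.4 and 13.6, and Clec9a, Cd209a and Ccr7 had none. Of 6 B cell markers only Ebf1 had a peak, of 7.03 and 8.74, while Cd79a, Cd79b, Ms4a1, Pax5 and Cd22 had none. In both replicates H2-Aa and H2-Eb1 were above every marker of these 3 lists other than Mertk, Zbtb46 and Ebf1. For these markers, having none means only that no promoter peak was called. Distal peaks of the markers without a promoter peak ran from 0 and 1 at Ms4a1 to 30 and 29 at Pax5. The part of sequencing depth and the share of such cells in the glands were not tested.

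**Figure D5:**
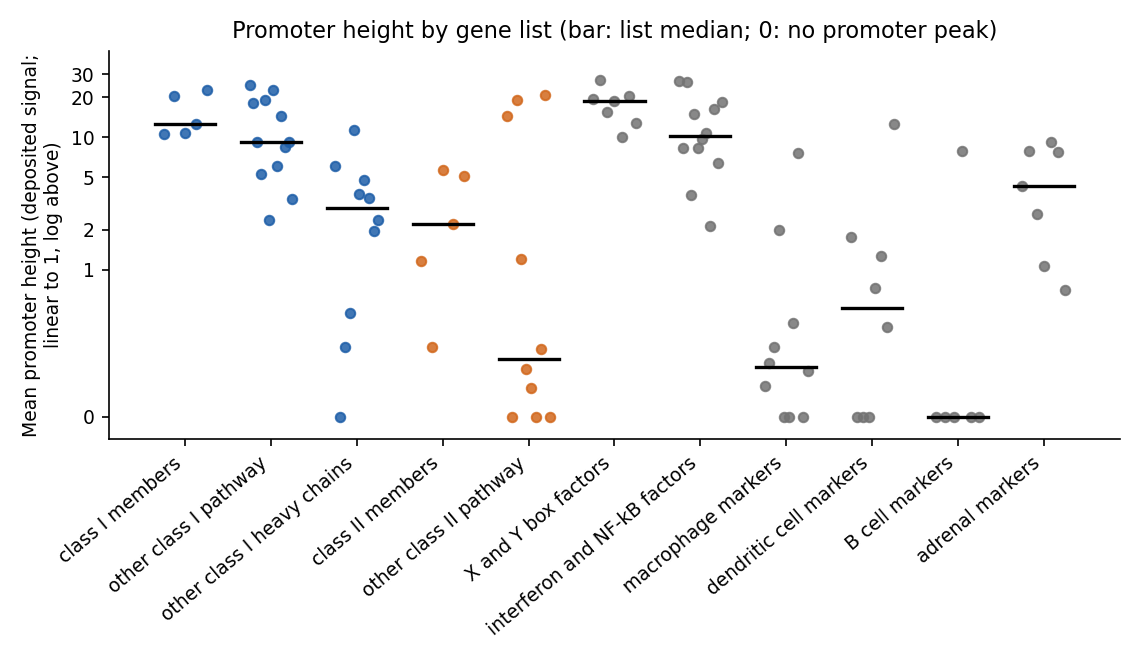
Mean promoter height over both replicates of each gene (points) by list, in deposited signal, linear up to 1 and logarithmic above, class I lists in blue left of class II lists in orange, regulators and cell markers in grey, bars for list medians. Class I members and their pathway lie mostly above 2, the class II pathway splits into 3 genes above 10 and the rest at 1.21 or below, and 5 of 6 B cell markers are at 0.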

How the data were processed

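The authors deposited, for each of 2 DNase-seq libraries, 2 peak lists with a signal height per peak, a table of false discovery rates (q-values, with positions under 0.05 listed) and a footprint list whose p-value column holds the constant 0.01. Per the labels the assembly is mm10, and per the text deposited with the samples replicates were not pooled. The sources used here do not give the peak caller, its thresholds or the unit behind the signal. The longer peak list was used. Start sites (TSS) were those of GENCODE M21, basic set, and sequences from GRCm38.p6 and the RefSeq promoter table of that assembly. A promoter peak reaches within 1000 bp of any TSS, a distal peak lies within flanks of 50000 bp, and overlap means at least 1 bp. With 1 group and 2 libraries no test was run, and errors are SDs over replicates. Functions were tested on simulated peaks.

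The members and lists were chosen with earlier results of these data known; 1 listed B cell marker is not reported here. Named were all members, and of each other list its tallest and lowest gene, genes with a peak in 1 library alone where 3 or fewer, and genes that share a promoter peak with a member; Nlrc5, H2-DMa, Ctsl and H2-DMb1 were named after their values were seen. Computations used Python 3.11.15, numpy 2.4.6, pandas 2.3.3, numba 0.67.0, pysam 0.24.0, scipy 1.17.1 and matplotlib 3.10.9.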

Additional observations from a re-analysis of the deposited data

How the results depend on the processing

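Class I stayed above class II in median promoter height in both replicates under each alternative tried: the shorter peak list, windows of 500 bp and 2 kb, the most upstream TSS, nearest peaks only, scaled heights and the comprehensive GENCODE TSS set, the last chosen after seeing the data. The difference was 7.59 to 13.2 with either replicate left out. Ciita lost its promoter peak with the most upstream TSS or the shorter list, leaving 9 of 10, and 8 of 10 kept one in both replicates when only peaks above the library median counted, which removes Ciita and Cd74; H2-Ab1 averaged 3.70 with the comprehensive set, 2.46 with 2 kb and 2.22 as reported. The difference in footprints was 2 to 4 with a replicate left out and 0 with the 2 kb window. The difference in distal counts, class I minus class II, was 0 as reported and with either replicate left out (0 to 0). It was -2.5 with the comprehensive set, -1 with each peak given to the nearest TSS, -2 with flanks of 10 kb, -0.5 for peaks above the library median and 0.5 with the shorter list, so no direction is given for it. The causes of these changes were not tested. No paired analysis was possible because there is 1 group.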
